A study of Mus musculus with 8 samples.

Results

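Motile cilia of the ependymal cells that line the central canal were examined through the transcripts of 37 genes in the lumbar spinal cord of 8 male mice. The set holds Foxj1, 6 other genes enriched in ependymal cells, and 30 genes that encode parts of the ciliary shaft. The genes were chosen by name for what they encode, as 37 of the 55291 genes listed in the count table. All 37 were among the 19470 genes that passed the filter on low counts. The 2 groups of 4 mice were SOD1G93A Ager fl/fl Cx3cr1Cre/+ (here Ager-deleted) and SOD1G93A Ager+/+ Cx3cr1Cre/+ (here Cre control). Every mouse therefore carried the SOD1G93A transgene, a model of familial amyotrophic lateral sclerosis, and 1 Cx3cr1 allele replaced by a tamoxifen-inducible Cre, so no healthy cord and no mouse without Cre entered the comparison. All were on a C57BL/6J background and by the labels were given tamoxifen in 5 daily injections of 0.2 µg from 12 weeks of age and were 120 days old. The text of the study gives a slightly later start of tamoxifen and describes the sequenced tissue as end-stage. Ager encodes RAGE, a receptor for glycated proteins and danger signals. The recombination is directed to Cx3cr1-expressing cells such as microglia, while RNA came from the whole cord. The question here is how much the cilia genes differed with the genotype and how they moved together from mouse to mouse.

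Motile cilia beat by means of an axoneme, a cylinder of doublet microtubules around a central pair. Dynein heavy chains on the doublets are the motors, radial spokes and the central pair apparatus control the stroke, and proteins inside the doublet lumen stiffen it. Foxj1 is the transcription factor that switches on the motile cilia programme, together with RFX factors that bind a palindromic element called the X-box. In the cord, ependymal cells carry such cilia on the wall of the central canal and move cerebrospinal fluid (CSF).

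Because RFX sites are a feature that the choice of genes did not use, the start regions of the members were searched for the X-box spacing GTNNCC, then 3 bases of any kind, then GNNAC, on both strands. RefSeq promoter windows of 300 bases (250 before to 50 after the start; GRCm38.p6) were at hand for 29 of the 37 members. The motif lay in 10 of these 29 genes (34.5%) and in 1422 of all 27025 genes with a window (5.26%). The 10 were Enkur, Hydin, Cfap44, Pifo, Tekt1, Cfap126, Spag16, Dnah2, Dnah10 and Spag6l. Of these, 3 are shown for orientation: those with a single match whose levels followed the other members most closely from mouse to mouse. Each run covers 110 bases before to 10 after the start, 5′ to 3′ on the strand of the gene, and capitals mark the match. They are Enkur (chr2:21205356-21205475, minus strand, match beginning at -12 from the start), Hydin (chr8:110266867-110266986, plus strand, -21) and Cfap44 (chr16:44394689-44394808, plus strand, -27).
Enkur: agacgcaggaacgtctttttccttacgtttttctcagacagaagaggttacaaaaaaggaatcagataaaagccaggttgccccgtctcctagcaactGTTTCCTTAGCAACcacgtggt
Hydin: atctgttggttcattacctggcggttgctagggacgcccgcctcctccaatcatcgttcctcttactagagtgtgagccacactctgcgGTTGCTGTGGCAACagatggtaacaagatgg
Cfap44: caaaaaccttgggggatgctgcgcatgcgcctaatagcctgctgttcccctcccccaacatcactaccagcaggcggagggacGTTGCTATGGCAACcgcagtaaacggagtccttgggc

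In Enkur the match fits this spelling on the strand of the gene, and in Hydin and Cfap44 it fits on the opposite strand. The shorter core GTTGCC, which can overlap the first motif, was in 14 of 29 members (48.3%) against 14.1% of all genes, and GTTGCTA was in 12 (41.4%) against 4.28%. Of 2 stricter X-box spellings, GTNNCC, 2 bases and GGNAAC was in 2 members (6.9%) against 1.49%, and GTTNCCA directly followed by TGGNAAC in 0 against 0.152%. The forkhead spelling GTAAACA was in 2 members (6.9%), Ak7 and Cfap43, against 4.05%, and its shorter core TAAACA in 10 (34.5%) against 15.1%. Of spellings outside the X-box and forkhead motifs, CCAAT was in 12 members (41.4%) against 41.1% and TATAAA in 3 (10.3%) against 15.7%. The other 5 spellings, all parts of the X-box, were in 0 to 16 members, against 0.633% to 18.8% of all genes. In all, 14 spellings were searched, chosen after several had been seen, so these shares are descriptions of a sequence window and not sites of binding. No window was at hand for Foxj1, Rarres2, Tppp3, Dnah3, Cfap54, Cfap65, Rsph1 or Rsph4a.

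The libraries held 31148047 to 40324897 counts per mouse, so that 3 counts corresponded to 0.0744 to 0.0963 CPM (counts scaled to a library of 1000000). Across all genes, 14 of 19470 were called different between genotypes by the exact test of edgeR at an adjusted p below 0.05 (0.0719%) and 1 by its quasi-likelihood test (0.00514%). The exact test called 78 genes with common and tagwise dispersions and 3 to 98 with 1 mouse left out, and 0 of the members in each. Ager itself was at 0.889, 1.51, 1.02 and 1.34 CPM after deletion and at 1.53, 2.22, 2.18 and 2.41 CPM in the controls (log2 fold change -0.81, SE 0.22). The groups did not overlap, and the adjusted p was 0.252 in the exact test of edgeR. Control mice E5386 and E5642 stood apart with a summed level of 17 skeletal muscle markers of 1232 and 1870 CPM against 70.4 to 99.7 CPM in the other 6 mice, and results on the members are also given without them.

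The markers listed for ependymal cells, all members of the set itself, had counts in every library. Raw counts of the members ran from 14 to 7587 per mouse. Levels per exon length (RPKM, from the normalised CPM and the union of annotated exons) ran from 0.0669 RPKM for Spag17 to 98.8 RPKM for Tppp3, with a median of 1.14 RPKM. Tppp3, a tubulin polymerisation factor, was the highest by far, and Foxj1 followed at 17.8 RPKM. Next came Rarres2, which encodes the chemoattractant chemerin (5.58 RPKM), the cytoplasmic dynein light chain Dynlrb2 (4.06 RPKM) and the radial spoke head gene Rsph1 (4.03 RPKM), whose ranges over the mice overlapped. The 10 dynein heavy chains, with 12009 to 19980 exon bases each, lay between 0.0973 RPKM for the inner-arm chain Dnah3 and 0.933 RPKM for Dnah7b. Dnah7b has close copies, Dnah7a and Dnah7c, among which reads may be divided, and Spag6l has the copy Spag6.

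**Figure D1:**
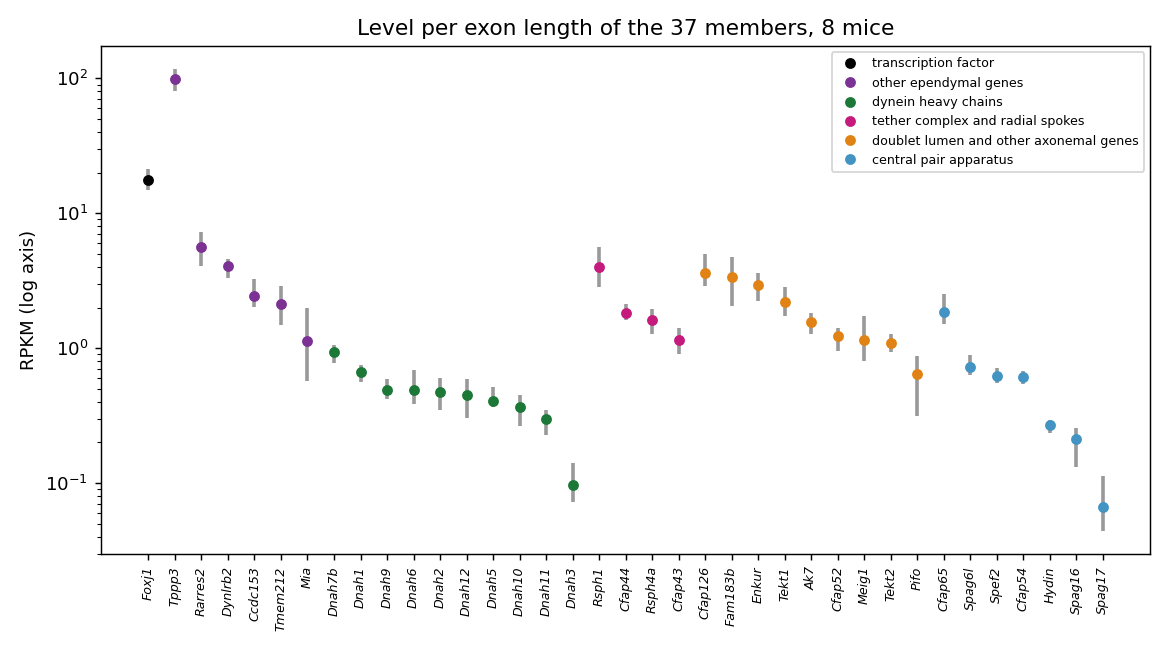
Level of each member in RPKM (log axis), grouped by role and ordered by level within a role. Points are means of 8 mice and grey lines run from the lowest to the highest mouse. Tppp3 lies at 98.8 RPKM and Spag17 at 0.0669 RPKM.

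None of the 37 members passed a test of the difference between genotypes. Beside 0.0719% of all genes called, 0 of 37 members were called by the exact test, with an adjusted p of 1 for each, and 0 by the quasi-likelihood test of edgeR, with 0.792 (Dnah5) as the smallest adjusted p. At an unadjusted p below 0.05 the exact test passed 4.26% of all genes and 0 members, and the quasi-likelihood test 6.71% of all genes and 0 members. The 2 groups failed to overlap in 3.88% of all genes and in 0 members. The log2 fold change, Ager-deleted over Cre control, was above 0 in 27 members (73.0%) and in 52% of all genes, with a median of 0.07 over the members and 0.0069 over all genes. Members share mice and libraries, so they are not independent, and with 1 mouse left out in turn the number above 0 ran from 21 (without E5231) to 32 (without E1776).

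The precision sets what a missing call can mean. The 95% interval of the log2 fold change lay within ±1 for all 37 members and within ±0.5, a 1.41-fold change, for 23 of them. The widest reached down to -0.95, for Spag17, and up to 0.80, for Mia. In whole cord, fewer ependymal cells and less cilia RNA per cell cannot be told apart. Mouse to mouse, the coefficient of variation was 15.9% at the median and ran from 7.55% for Hydin to 35.4% for Mia. The median over 2565 genes of like level (2.25 to 7.87 CPM) was 15.3%. In 19 members it was above 2 times the counting error, and in 10 it was under 1.5 times.

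**Figure D2:**
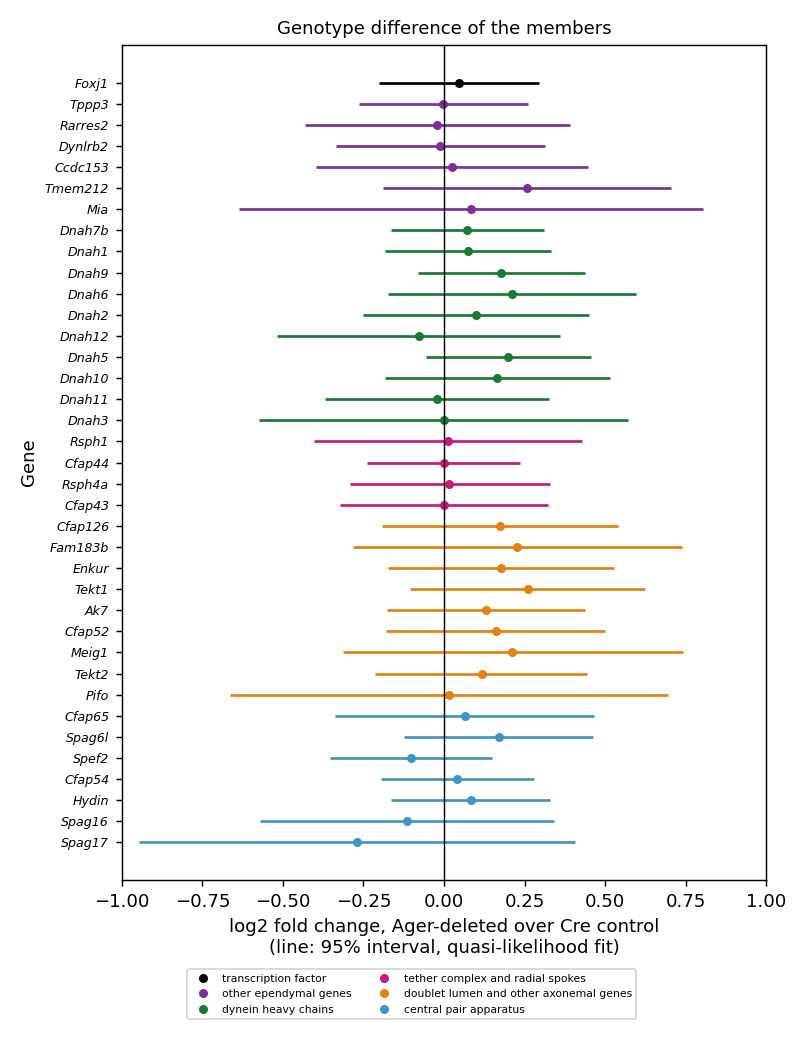
Log2 fold change (Ager-deleted over Cre control) of each member from the exact test, with lines for the 95% interval of the quasi-likelihood fit, coloured by role. Every interval spans 0, and all lie within -0.95 and 0.80.

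Foxj1 was at 51.4 CPM in Ager-deleted mouse E1776, 56.3 in E5231, 39.1 in E5248 and 42.4 in E5568. It was at 49.2 CPM in control E5386, 42.9 in E5642, 43.0 in E6578 and 48.1 in E6732. Values by mouse are listed in this order throughout. The Ager-deleted mice held both the highest and the lowest levels and enclosed the whole control range. The means were 47.3 ± 7.91 and 45.8 ± 3.32 CPM (SD, n = 4 each), and the 95% interval of the ratio ran from 0.869 to 1.23. The factors that act with or before Foxj1 were measured as well, in the list of multiciliation and basal body genes. Of its 16 tested genes 0 were called, with 7 above 0, 9 below 0 and a median log2 fold change of -0.0037. Gmnc, which initiates multiciliation, had 20 to 46 counts per mouse, while its partner Mcidas, with 4 to 13 counts, did not pass the filter. Rfx3, an X-box factor of ciliated cells, was at 20.5 ± 2.64 CPM in Ager-deleted mice and 23.1 ± 0.764 CPM in controls (SD, n = 4 each; edgeR exact test, adjusted p = 1). The log2 fold change was -0.17 for Rfx3, 0.18 for Rfx1, -0.0083 for Rfx2 and -0.06 for Rfx4.

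Among the other ependymal genes, 3 were above and 3 below 0, with a median log2 fold change of 0.012. Tppp3 was at 183, 205, 149 and 194 CPM in Ager-deleted mice and at 174, 185, 217 and 155 CPM in controls. Rarres2 was at 11.4, 19.4, 12.7 and 15.3 CPM against 10.7, 16.0, 17.3 and 15.7 CPM. The groups overlapped over nearly their whole range in both genes. Tmem212, which encodes a membrane protein used as an ependymal marker, was at 1.32, 2.08, 1.83 and 1.42 CPM against 1.59, 1.45, 1.46 and 1.07 CPM (log2 fold change 0.26, SE 0.20; 0.13 without E5231 and 0.15 without E6732). Mia, a secreted protein, was at 1.12, 1.97, 0.564 and 1.01 CPM against 1.23, 0.988, 1.27 and 0.924 CPM, so that both its extremes were Ager-deleted mice. Mia shares exon bases with another annotated gene on the same strand, and reads there could be split. Ccdc153 and Dynlrb2 had log2 fold changes of 0.03 and -0.01.

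Of the 10 dynein heavy chains, 7 had a log2 fold change above 0, and the values ran from -0.08 (Dnah12) to 0.21 (Dnah6). The outer-arm chain Dnah5 was at 6.68, 6.55, 8.01 and 5.95 CPM in Ager-deleted mice and at 6.29, 5.71, 5.69 and 5.96 CPM in controls. Its log2 fold change was 0.20 (SE 0.11), and its two-sided exact permutation p of 0.0857 was the smallest among the members, where 70 assignments of the mice allow no p below 0.0286. The outer-arm chain Dnah9 was at 7.70, 9.003, 9.51 and 7.24 CPM against 7.63, 8.06, 6.73 and 7.12 CPM (log2 fold change 0.18, SE 0.12). Without E5248 the log2 fold change was 0.11 for Dnah5 and 0.11 for Dnah9. The inner-arm chain Dnah6 was at 5.89, 7.47, 9.06 and 5.64 CPM against 7.36, 5.99, 5.79 and 5.08 CPM, and its log2 fold change was 0.07 without E5248 and 0.31 without E5386, the ends of its range with 1 mouse left out. In Dnah5, Dnah6 and Dnah9 the highest mouse was E5248, and E5568 lay within the range of the controls. Dnah7b, the chain with the highest level, was at 19.0, 17.5, 21.1 and 18.8 CPM against 21.1, 19.6, 15.4 and 16.6 CPM. Dnah3, the lowest, was at 1.25, 1.97, 1.04 and 1.32 CPM against 2.02, 1.20, 1.07 and 1.26 CPM. Single mice of either genotype, E5231 and E5386, were the high ones for Dnah3. The remaining chains, Dnah1, Dnah2, Dnah10, Dnah11 and Dnah12, had log2 fold changes between -0.08 and 0.17.

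The tether complex genes Cfap43 and Cfap44, which anchor an inner-arm dynein, and the radial spoke head genes Rsph1 and Rsph4a had the smallest differences as a group. Their log2 fold changes lay between -0.0017 and 0.02, with a median of 0.0069. Cfap43 shares exon bases with Itprip and Gm22240 on the same strand, and reads there could be split. For Cfap44 the 95% interval of the ratio was 0.848 to 1.18.

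The 9 genes of the doublet lumen and other axonemal positions all had a log2 fold change above 0, from 0.02 for Pifo to 0.26 for Tekt1, with a median of 0.17, and none was called. With 1 mouse left out in turn, 8 or 9 of the 9 stayed above 0. Tekt1, a filament protein of the doublet, was at 2.82, 4.53, 3.64 and 4.58 CPM in Ager-deleted mice and at 3.17, 3.27, 3.09 and 3.45 CPM in controls (log2 fold change 0.26, SE 0.16). Its exact test p of 0.197 by edgeR, unadjusted, was the smallest of all members. E5231, E5248 and E5568 lay above every control, and E1776 lay below every control. Without E1776 the groups of Tekt1, Cfap52 and Enkur did not overlap, which made 3 of 37 members beside 6.2% of all genes in the same 7 mice. The others were Cfap126, Ak7, Tekt2, Meig1 and Fam183b, with log2 fold changes of 0.12 to 0.23.

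In the central pair apparatus, 4 genes were above and 3 below 0. Spag17 had the lowest value of all members, -0.27 (SE 0.30), on 14 to 31 counts per mouse. Hydin, a very large protein of the central pair and the least variable member, was at 4.78, 5.20, 5.33 and 4.81 CPM against 5.28, 4.85, 4.26 and 4.60 CPM. Cfap54 was at 8.10, 8.95, 9.96 and 9.64 CPM against 9.98, 9.11, 8.55 and 7.98 CPM. In both genes E5386 was the highest control and lay above at least 3 of the Ager-deleted mice. Spef2 and Spag16 had log2 fold changes of -0.10 and -0.11, and Cfap65 and Spag6l of 0.06 and 0.17. Without the muscle-rich controls E5386 and E5642, the groups of 5 members (Hydin, Cfap65, Dnah7b, Dnah9 and Ak7) did not overlap, each with higher levels after deletion, beside 12.9% of all genes in the same 6 mice. In those mice 0 members were called by the exact test of edgeR. The log2 fold change was above 0 in 31 of 37 members there, with a median of 0.14. Dnah7b was at 0.24 and Cfap54 at 0.14, while Rarres2 was at -0.17.

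**Figure D3:**
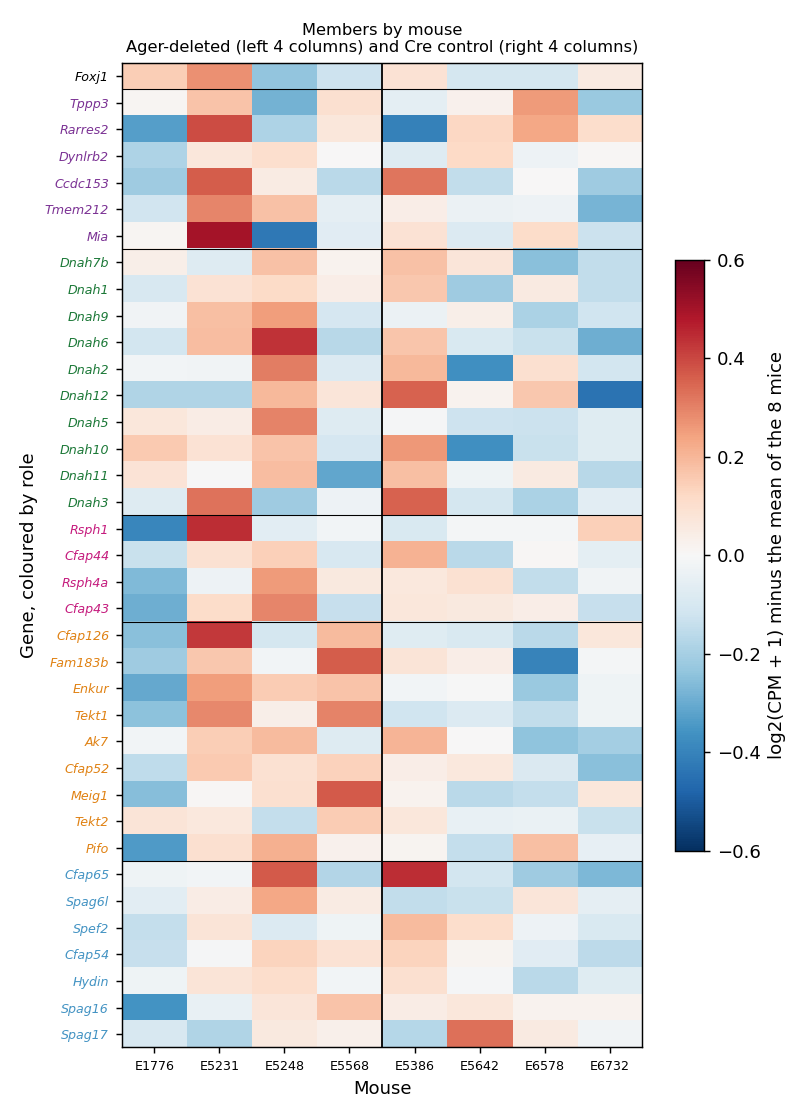
Log2(CPM + 1) of each member in each mouse minus the mean of its 8 mice, grouped by role, with Ager-deleted mice left of the black line and Cre controls right. Red columns run through many genes of E5231, E5248 and E5386, and blue through many of E1776.

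The members varied more between mice than between genotypes. The mean log2(CPM + 1) over the 37 genes was 2.56, 2.81, 2.76 and 2.69 in Ager-deleted mice and 2.75, 2.64, 2.63 and 2.58 in controls. The highest and the lowest mouse were both Ager-deleted. The group means were 2.71 ± 0.11 and 2.65 ± 0.0743 (SD, n = 4 each), a difference of 0.0554, which is smaller than either SD. With 1 mouse left out the difference ran from 0.0211 to 0.105. The highest value, without E1776, and the value of 0.0846 without E5386 were above the SD of the 4 controls. Without E5386 and E5642 the difference was 0.097, also above that SD. The first statement of this paragraph therefore depends on single mice. E5248 held the highest level for 10 members, E5386 for 10, E5231 for 9, E5568 for 5, E5642 for 2 and E6578 for 1. E1776 held the lowest level for 11, E6732 for 7, E6578 for 6, E5248 for 5 and E5642 for 4. E1776 and E6732 held the highest for 0.

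Over the 666 pairs of members the median Pearson correlation across the 8 mice was 0.27, and 507 pairs (76.1%) were above 0. After the genotype means were taken out the median was also 0.27. The range ran from -0.83 for Dnah10 with Spag17 to 0.97 for Hydin with Ak7. Each member was then set against the mean of the other 36. The correlation was highest for Tmem212 (0.87), Ccdc153 (0.83) and the doublet lumen gene Cfap52 (0.82), had a median of 0.53 and was lowest for Spag17 (-0.36). It was above 0.5 in 19 members (51.4%), against 956 of 16046 other genes at 1 CPM or more (5.96%). Dnah6 (0.78), Enkur (0.77), Cfap54 (0.76), Hydin (0.76), Ak7 (0.74), Cfap44 (0.74), Dnah1 (0.74) and Cfap43 (0.72), which lie in different roles, were among the closest followers. With 8 mice, and with genes that share libraries and depth, these values are descriptions only.

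Foxj1 did not follow its group: its correlation with the mean of the other members was 0.014, and 0.0169 was the median over its 36 pairs. Mia (0.79) and Dnah3 (0.73) alone exceeded 0.5, and the value for Mia was 0.118 without the mice E5231 and E5248, which lay farthest out in Foxj1. The lowest values were -0.709 for Spag17, -0.584 for Spag16 and -0.562 for Rsph4a. The correlations of Tppp3 (-0.04) and Rarres2 (0.02) with the mean of the other members were likewise near 0. Foxj1, Tppp3 and Rarres2 had the highest levels of the set per exon length, while in CPM Dnah7b and Cfap44 lay above Rarres2. The correlation with the other members was also low for some axonemal genes, such as Tekt2 (0.14) and Dnah11 (0.22) beside Spag17. The level of Foxj1 correlated more closely with Gfap, the intermediate filament of astrocytes (r = 0.848, and 0.695 without the same 2 mice), with Vim, another glial filament (0.84, then 0.736), and with the mean of 10 microglia markers (0.87, then 0.614), each over 8 mice. With the mean of all 10 astrocyte markers the value was lower (0.487, then 0.335), and with Cd24a, a marker of ependymal and other cells, it was 0.198 (then -0.558). With the mean of 11 neural stem and glial genes of the canal it was 0.709, but 0.14 without those mice. Gfap was at 10910, 10660, 6643 and 8429 CPM in Ager-deleted mice and at 9674, 9471, 8146 and 8494 CPM in controls, so that E5248 was the lowest for Gfap as for Foxj1. Whether RNA of Foxj1, Tppp3 or Rarres2 in these libraries came from cells other than ependymal cells was not tested.

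Genes outside the set were compared with it in the same way. The 10 other genes whose levels were most like the mean of the members over 8 mice were Zfp1 (0.965), Spag8 (0.962), 1110017D15Rik (0.944), Supv3l1 (0.928), Cfap70 (0.913), Spata24 (0.913), Prr16 (0.910), Adsl (0.905), Lrrc36 (0.897) and Lrrc74b (0.895). Spag8 and Cfap70 are the 2 of these in the lists of cilia genes. Of 110 listed cilia genes at 1 CPM or more, 40 (36.4%) correlated above 0.5 with the members, and the median was 0.32. By list, the mean of the dynein arm and docking genes correlated with the mean of the members at 0.872 (0.876 without E5231 and E1776, the mice farthest out). For radial spoke and nexin link genes the value was 0.858 (0.711), for other axonemal genes 0.826 (0.836) and for dynein assembly factors 0.756 (0.812). Intraflagellar transport genes stood at 0.251 and multiciliation and basal body genes at 0.179, but without E5231 and E1776 these were 0.753 and 0.701.

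Markers of other cell types near the canal gave mixed values. Neurons that contact the CSF surround the central canal, and the mean of their 8 markers correlated with the members at 0.844 (0.869 without E5231 and E1776). Their channel gene Pkd2l1 was at 12.9, 13.5, 16.0 and 12.3 CPM in Ager-deleted mice and at 16.7, 11.4, 12.4 and 13.3 CPM in controls, highest in E5386 and E5248. The markers did not all follow the members: the correlation was 0.67 for Espn, 0.55 for Pkd2l1, 0.55 for Sst, 0.40 for Myo3b, 0.25 for Pkd1l2, 0.10 for Gata2 and -0.22 for Tal1, while Gata3 lay below 1 CPM. All 8 were detected, and their summed level was 89.7 to 117.5 CPM in Ager-deleted mice and 96.0 to 99.0 CPM in controls, of which Sst alone made up 50.95 to 80.0 CPM and 55.7 to 60.5 CPM. The mean of 11 neural stem and glial genes of the canal, by contrast, correlated with the members at -0.105 (-0.643 without E5231 and E1776). Whether the amount of canal region in each dissected cord differed was not tested. Astrocyte markers correlated with the members at -0.323 (-0.245 without E5231 and E1776) and skeletal muscle markers at 0.128 (0.184). The values were -0.487 (-0.657) for motor neuron markers, -0.336 (-0.741) for meningeal fibroblast markers, -0.321 (-0.53) for Schwann cell markers and 0.0604 (-0.916) for erythroid markers. For neuron, oligodendrocyte and microglia markers they were -0.192 (0.0165), 0.0345 (0.0927) and 0.0388 (-0.354).

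Choroid plexus epithelium also carries motile cilia, and 1 library stood apart in its main marker. Ttr, the transthyretin gene and its main product, was at 28.1 CPM in control E6732 and at no more than 0.52 CPM in the other 7 mice. Kcnj13 had 62 counts in E6732 and 2 to 12 in the others, while Otx2 had 0 or 1 count everywhere. The summed level of the 10 tested choroid plexus markers of 12 was 32.0 to 38.9 CPM in Ager-deleted mice and 34.8 to 72.7 CPM in controls. The highest sum was that of E6732, of which Ttr alone made up 28.1 CPM. The other tested markers did not all rise there: Clic6 was highest in E6732 (2.53 CPM), but Calml4 was lowest (2.19 CPM). The mean of the 10 tested markers correlated with that of the members at -0.344 (-0.77 without E5231 and E1776). E6732 had the lowest mean level of the members among the controls, and the part of choroid plexus in the members' levels was not tested. Leaving it out brought the median log2 fold change of the members to 0.03, and leaving out E5386 brought it to 0.14.

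**Figure D4:**
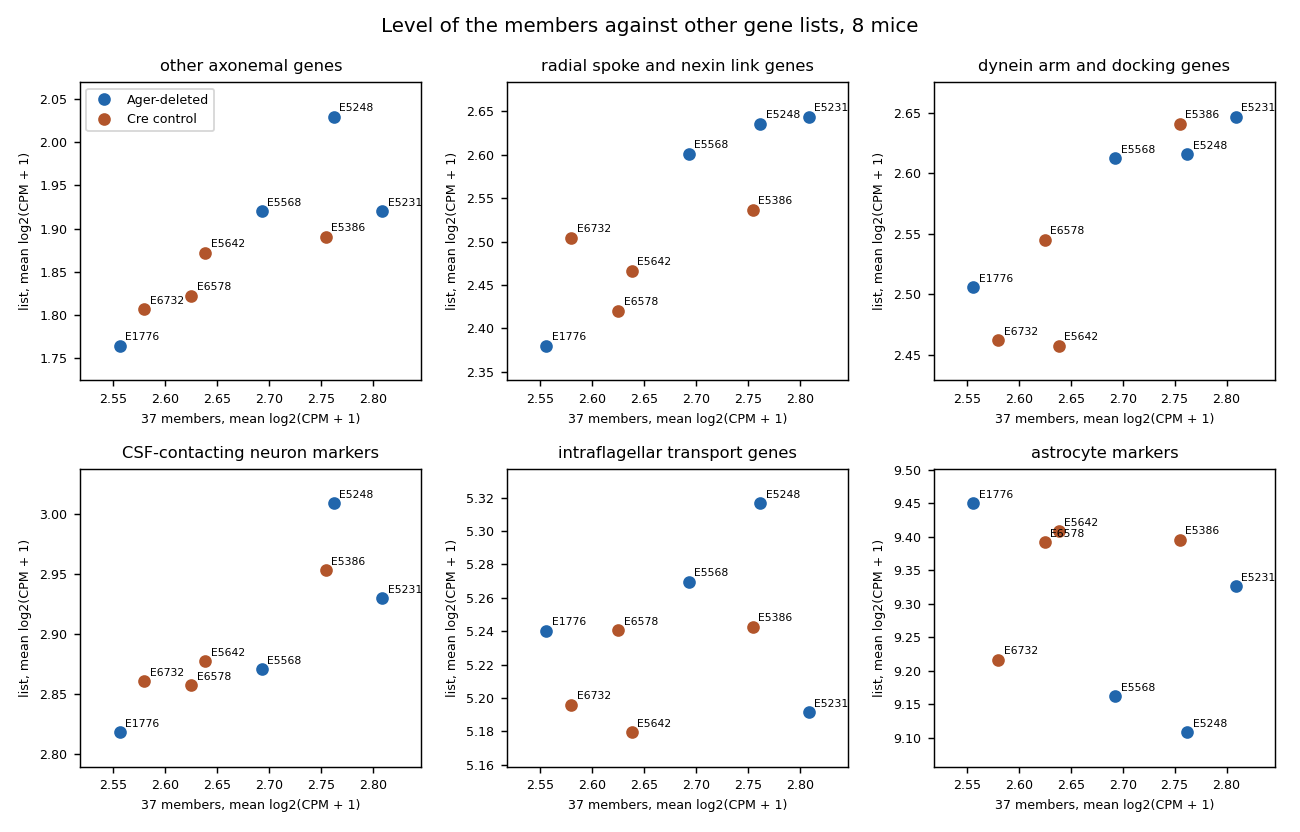
Mean log2(CPM + 1) of 6 gene lists (vertical) against that of the 37 members (horizontal), 1 point per mouse, blue for Ager-deleted and brown for Cre control. The first 4 lists rise with the members (r of 0.826, 0.858, 0.872 and 0.844), and the values for intraflagellar transport genes and astrocyte markers are 0.251 and -0.323.

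Members with long and short transcripts were also compared by mouse. The 17 members with at least 7 kb of exons averaged 2.83, 2.93, 3.06 and 2.82 on the log2(CPM + 1) scale in Ager-deleted mice and 3.05, 2.83, 2.83 and 2.74 in controls. The 20 shorter members averaged 2.33, 2.704, 2.51 and 2.58 against 2.50, 2.48, 2.46 and 2.44. The 2 sets of levels correlated at 0.33 over 8 mice and at 0.668 without E5248 and E5386. E1776 was low for short members and of middle rank for long ones. Over all genes, the mean of the longest 20% by exon length minus that of the shortest 20% was 3.46, 3.30, 3.49 and 3.34 in Ager-deleted mice and 3.40, 3.39, 3.41 and 3.45 in controls. The difference between long and short members correlated with it at 0.737 (rho 0.762), and at 0.782 without E5248 and E5386. Dynein heavy chains, all long, and doublet lumen genes, all short, correlated at 0.324 (0.334 without E5248 and E5386). Heavy chains and central pair genes, of 4559 to 18037 exon bases, correlated at 0.676, which fell to 0.0292 without those mice. With the tether complex and radial spoke genes the heavy chains stood at 0.507 (then 0.175). With the other ependymal genes, all short, they stood at 0.115 (then 0.682). The part of length in the ordering of the members was not tested.

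**Figure D5:**
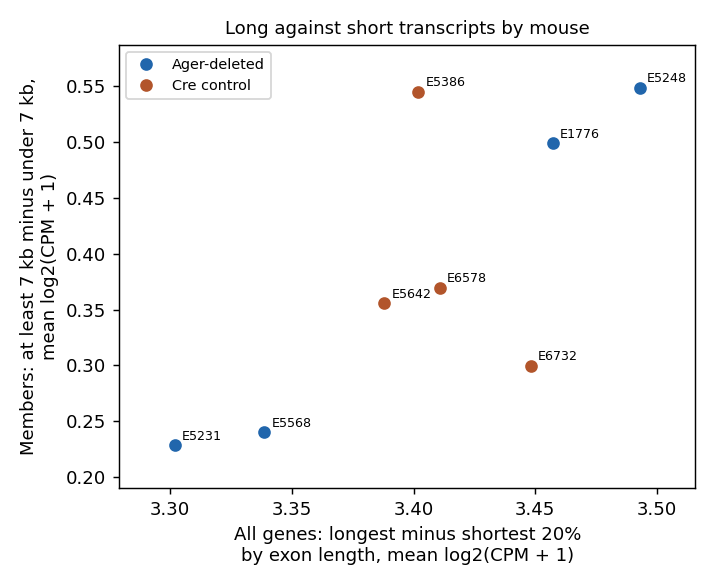
Mean log2(CPM + 1) of members with at least 7 kb of exons minus that of shorter members (vertical) against the longest minus the shortest 20% of all genes by exon length (horizontal), 1 point per mouse. E5231 and E5568 are lowest on both axes and E5248 is highest on both (r = 0.737).

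Finally, the other genes of the cilium were compared between genotypes in 6 lists of 134 genes, of which 128 could be tested. None was called by the exact or the quasi-likelihood test of edgeR, and 3 had an unadjusted exact test p below 0.05 (2.34%, beside 4.26% of all genes). These were the radial spoke gene Rsph14 (log2 fold change -0.74, SE 0.31), the axonemal gene Cfap47 (-0.50, SE 0.20) and the outer dense fibre gene Odf3b (0.36, SE 0.14). Rsph14 rested on only 7 to 23 counts per mouse, and the groups overlapped in Rsph14 and Odf3b. The levels of Cfap47 were 1.42, 1.81, 2.40 and 2.74 CPM in Ager-deleted mice and 2.98, 2.81, 2.89 and 3.16 CPM in controls, so the groups did not overlap, opposite in direction to most of the list. The groups also failed to overlap in Ruvbl2, Cfap61, Ift22 and Ift122, each higher in Ager-deleted mice, which made 5 of 128 genes (3.91%) beside 3.88% of all genes. The log2 fold change was above 0 in 90 and below 0 in 38, with a median of 0.08. It was above 0 in 30 of 40 other axonemal genes and 16 of 21 radial spoke and nexin link genes. In the shuttle of the cilium, the intraflagellar transport genes, 15 of 22 were above 0 with a median of 0.03.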

How the data were processed

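Stranded polyA RNA-seq libraries from the lumbar cord of 8 mice were used. Per the labels and the methods of the study, reads were trimmed with Trimmomatic 0.36, aligned to mm10 with STAR 2.7.3a and counted per gene with featureCounts of Subread 1.6.3. The strand setting of the counting is not given in the sources used here. Counts of members that share exon bases with a gene on the opposite strand could therefore be affected. These were Rarres2, Dnah1, Dnah2, Dnah3, Dnah6, Dnah9, Dnah10, Dnah11, Cfap52, Cfap65, Hydin, Spag17 and Tekt2. The authors deposited raw counts per gene, and a table of log2 CPM values that the authors made with edgeR 3.26.8. The deposited log2 values were recomputed from the counts for all 19470 genes with a largest difference of 4.78e-06 and were otherwise not used.

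Groups were taken from the genotype labels. Genes were filtered with filterByExpr (minimum of 10 counts) and normalised by TMM, and compared with the exact test of edgeR 4.0.16 (R 4.3.3), with Benjamini-Hochberg adjustment over all tested genes and a threshold of 0.05. SEs and 95% intervals came from its quasi-likelihood fit. The exact test follows the methods of the study. Levels are TMM-normalised CPM, and log2(CPM + 1) for means over genes and for correlations, which carry no p. Exon lengths were taken from GENCODE M21 and matched 98.0% of tested genes. A count of 3 set the floor. The scripts were tested on simulated counts. Single members were also compared by an exact permutation test over 70 assignments of mice, and p-values measure the spread between mice.

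Values in every mouse were given for Foxj1, the 3 highest members per length, the 5 smallest exact test p, the 2 most and 2 least variable members at 1 CPM or more, and the highest and lowest dynein heavy chain. Of other genes, the 3 smallest p in the cilia lists and the 10 most like the members were named. Genes whose groups did not overlap in the cilia lists or with mice left out were named after their values were seen. The same holds for Gmnc, Mcidas, Rfx1, Rfx2, Rfx3, Rfx4 and the markers of other cell types. The members and lists were chosen with earlier results of these data known. Alternatives were other normalisations, filters, dispersions and tests (DESeq2 1.42.0, limma 3.58.1), removal of muscle markers, and mice left out.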

Additional observations from a re-analysis of the deposited data

Results flagged for a closer look

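In 90 groups of 4 mice, 1 value in each of 4 groups lay far from the other 3 by Dixon's criterion, where about 1 in 20 groups, or 4.5, would by chance. The inner-arm gene Dnah2 was at 9.001 CPM in Ager-deleted mouse E5248 and at 6.62 to 6.99 CPM in the other Ager-deleted mice. The tether gene Cfap43 was at 7.20 CPM in control E6732 and at 8.26 to 8.45 CPM in the other controls. Enkur was at 3.77 CPM in control E6578 and at 4.47 to 4.57 CPM in the other controls. The mean log2(CPM + 1) of the choroid plexus markers was 1.63 in Ager-deleted mouse E1776 and 1.79 to 1.82 in the other Ager-deleted mice.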

How the results depend on the processing

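The number of members called and of other cilia genes called was 0 under each of the 20 alternatives. Over all genes, where 14 were called, the count was 5 with a filter of 50 counts, 78 with common and tagwise dispersions, 1 with the quasi-likelihood test, 29 with DESeq2, 1 with limma-voom, 9 without muscle markers, 67 without E5386 and E5642, 48 at an adjusted p under 0.10, and 3 to 98 with 1 mouse left out. The number of members whose groups did not overlap was 0 in all 8 mice, beside 3.88% of all genes. Without E5386 and E5642 it was 5, beside 12.9% of all genes. With 1 mouse left out it was 0 to 3, beside 5.02% to 11.1% of all genes. It was 3 without E1776, beside 6.2%, and 1 without E5568 (Dnah5), beside 5.84%. The median log2 fold change of the members kept its sign and ran from 0.033 to 0.143, the difference in their mean level from 0.015 to 0.105, and their median pairwise correlation from 0.213 to 0.338. Of 245 values for 13 named members, 24 changed sign, and none was called. Dnah3 was at 0.022 by library size only, 0.0026 with upper quartile scaling, 0.0032 with no filter and 0.24 without E5386 and E5642. Tppp3 was at 0.025, 0.0021 and 0.0025 in the first 3 of these, Rarres2 at 0.0069 by library size only, and Mia at -0.031 with limma-voom. With 1 mouse left out, Cfap54 ran from -0.0084 to 0.097, Dnah3 from -0.21 to 0.23, Foxj1 from -0.047 to 0.13, Mia from -0.29 to 0.31, Rarres2 from -0.18 to 0.084 and Tppp3 from -0.071 to 0.091. Without a change of sign, the same ranges were 0.13 to 0.36 for Tmem212, 0.11 to 0.26 for Dnah5, 0.065 to 0.31 for Dnah6, 0.0022 to 0.14 for Dnah7b, 0.11 to 0.24 for Dnah9, 0.036 to 0.13 for Hydin and 0.17 to 0.39 for Tekt1. The cause was not tested. No paired analysis was possible because the labels give each mouse its own number and no number is shared between the genotypes.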
